A study of Mus musculus with 14 samples.

Results

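The 51 genes described here copy DNA or decide when a cell leaves G1 for S phase. They are the rows whose gene symbol is one of 51 names set by function: origin recognition, helicase loading, the MCM helicase and its partners, the sliding clamp and its loader, replication protein A, the polymerases, nucleotide supply, and the cyclin, E2F and RB control of S phase entry. All 51 were present in both deposited tables, among 12843 genes in the table with IFN-beta and 14732 in the table without it. Their expression was compared between genotypes in naive CD8 T cells, the precursors of cytotoxic T cells, taken from the spleens of C57BL/6 mice and sorted for high CD62L and low CD44. There were 4 libraries labelled Morrbid-/- and 4 wild-type libraries of cells given IFN-beta (20 ng/mL, a type I interferon), and 3 libraries labelled Morrbid-/- and 3 wild-type libraries of cells not given it. All groups shared a culture of 6 h on plate-bound anti-CD3 (1 µg/mL) with soluble anti-CD28 (1 µg/mL), which stand in for antigen and costimulation. Morrbid is a long noncoding RNA encoded near Bcl2l11, the gene of the pro-apoptotic protein BIM, and the labels do not say which stretch of it was deleted.

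Before S phase, the origin recognition complex (ORC), CDC6 and CDT1 load the MCM2-7 helicase onto DNA in an inactive form. CDC45 and the GINS complex join it to make the active helicase, after which the polymerases, the clamp PCNA and its loader RFC extend the new strands. D-type cyclins with CDK4 or CDK6, then E-type cyclins with CDK2, phosphorylate RB and its relatives p107 (Rbl1) and p130 (Rbl2), which releases E2F factors that switch on many replication genes. Naive T cells rest outside the cycle, and after activation they grow for many hours before their first S phase.

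Many promoters of this group carry E2F sites. The octamers TTTCCCGC, TTTGGCGC, TTTCGCGC and TTTGCCGC were searched on both strands in RefSeq windows (GRCm38.p6) that run from 250 bases before to 50 bases after each start. At least 1 octamer stood in 17 of the 41 members that have a window (41.5%), against 704 of 27025 genes (2.61%) and 744 of 32851 windows (2.26%) in all. Overlapping matches were allowed, as in Mcm5, where TTTCGCGC and the reverse complement of TTTGGCGC share bases. The stretches below, 5′ to 3′ on the strand of the gene, belong to 7 members that the results return to, with the octamers in capitals.
Mcm5: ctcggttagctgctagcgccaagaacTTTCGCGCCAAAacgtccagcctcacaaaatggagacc
Mcm6: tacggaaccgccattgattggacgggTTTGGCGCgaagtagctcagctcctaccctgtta
Mcm7: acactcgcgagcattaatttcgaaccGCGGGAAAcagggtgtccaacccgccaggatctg
Orc3: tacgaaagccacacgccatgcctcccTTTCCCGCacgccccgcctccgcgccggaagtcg
Orc1: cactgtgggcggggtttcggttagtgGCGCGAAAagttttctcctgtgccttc
Cdc6: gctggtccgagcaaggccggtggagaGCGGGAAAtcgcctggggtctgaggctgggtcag
Rbl1: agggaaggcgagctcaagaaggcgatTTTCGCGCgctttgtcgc
They lie at chr8:75109330-75109393 (plus strand, Mcm5), chr1:128359719-128359778 (minus, Mcm6), chr5:138172015-138172074 (minus, Mcm7), chr4:34614950-34615009 (minus, Orc3), chr4:108579401-108579453 (plus, Orc1), chr11:98907987-98908046 (plus, Cdc6) and chr2:157204535-157204578 (minus, Rbl1). The stretches of Orc1, Cdc6 and Mcm7 lie within the spans of their genes, which run from 108575705 (Orc1), from 98907709 (Cdc6) and up to 138172111 (Mcm7). The starts of those windows therefore lie inside the gene, as do those of the Orc3 and Mcm5 windows. The Orc3 stretch lies partly within its gene, which runs up to 34614963. A match is a description of these letters and not a mapped binding site. With IFN-beta, the median log2 change in libraries labelled Morrbid-/- was -0.15 over the 14 tested members with an octamer and -0.03 over the 20 tested members with a window and none. Without IFN-beta the same medians were -0.01 and -0.04, so the order of the medians was not kept.

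Before the members, the labels and the libraries were checked. Morrbid, listed as Gm14005, was near the detection floor without IFN-beta, with 7, 4 and 7 reads in libraries labelled Morrbid-/- and 2, 4 and 2 in wild type. It was thus not lower under the Morrbid-/- label. With IFN-beta it was not among the genes listed, so the label could not be checked by this gene there. Groups are therefore called by their labels. Bcl2l11 was lower in libraries labelled Morrbid-/- with IFN-beta (412 ± 58.2 normalized counts, against 665 ± 77.3 in wild type, SD, n = 4 each; log2 change -0.69, SE 0.10; limma adjusted p = 3.14e-05), and its change without IFN-beta was -0.36 (SE 0.12; adjusted p = 0.424). Recovered reads were 5788070 to 7355337 per library with IFN-beta and 1747634 to 2963149 without it. All 9 CD8 T cell markers were present, with summed levels of 10464 to 12237 normalized counts in libraries labelled Morrbid-/- and 11322 to 12149.8 in wild type with IFN-beta, and 4359 to 5036 and 4707 to 5563 without it. Cd4 is not in the tables, and the other CD4 T cell markers, mostly Cd40lg and Foxp3, summed to 8.21 to 19.2 normalized counts in libraries labelled Morrbid-/- and 4.10 to 10.7 in wild type with IFN-beta, and to 9.12 to 15.7 and 6.24 to 9.17 without it. The B cell markers present summed to 18.9 to 31.2 in libraries labelled Morrbid-/- and 16.6 to 19.5 in wild type with IFN-beta, and to 3.07 to 14.2 and 8.41 to 9.83 without it. All 4 pairs of ranges overlapped, the part of these cells in the results was not tested, and the myeloid markers summed to at most 36.6. Mitochondrial 16S rRNA took 9.05% to 10.5% of reads in libraries labelled Morrbid-/- and 9.45% to 12% in wild type with IFN-beta, and 11.6% to 18.9% and 12.5% to 18.1% without it. Nothing in the labels says that replicates came from separate animals, so the spread behind each p-value is that between libraries and may be technical. In bulk RNA, fewer cells that express a gene and less RNA per cell cannot be told apart.

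With IFN-beta, few of these genes differed between the labelled genotypes, and those by small amounts. Mcm4 was higher in libraries labelled Morrbid-/-, and Mcm6 and Orc3 were lower, at a limma adjusted p under 0.05 over all genes of the table. The other 39 of the 42 members tested, those with a mean of at least 10 normalized counts, did not pass. That is 7.14% of the tested members, against 10.1% of the 9964 genes tested (5.25% higher and 4.84% lower), so the members were called about as often as genes at large. An unadjusted p under 0.05 was reached by 8 of the 42 members and by 2434 of the 9964 genes. The median log2 change of the members was -0.04, against 0.00 over all genes tested. The 95% interval of the change lay within 1.5-fold in either direction for 34 members and within 2-fold for 41.

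Without IFN-beta, no member passed in either direction among the 41 tested. Over all 9290 genes tested 0.635% passed, 0.538% higher and 0.0969% lower, so few calls were made anywhere. An unadjusted p under 0.05 was reached by 2 members, Ccnd2 and Rb1, and by 567 of the 9290 genes. No member was called by edgeR or DESeq2 on the recovered reads. The median log2 change of the members was -0.01, equal to that of all genes at 2 decimals. The interval of the change lay within 1.5-fold for 28 members and within 2-fold for 38, and for 3 members it reached past 2-fold.

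The difference between the genotype effects with and without IFN-beta was tested for 40 members, and 0 passed, against 1.33% of 9078 genes (0.441% higher and 0.892% lower). An unadjusted p under 0.05 was reached by 3 members, Ccnd2, Rbl1 and Orc6, and by 1090 of the 9078 genes. On recovered reads edgeR called 0 members and DESeq2 called 1, Ccnd2. A member called with IFN-beta and not without it is therefore not shown to respond to genotype differently between the stimulations.

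**Figure D1:**
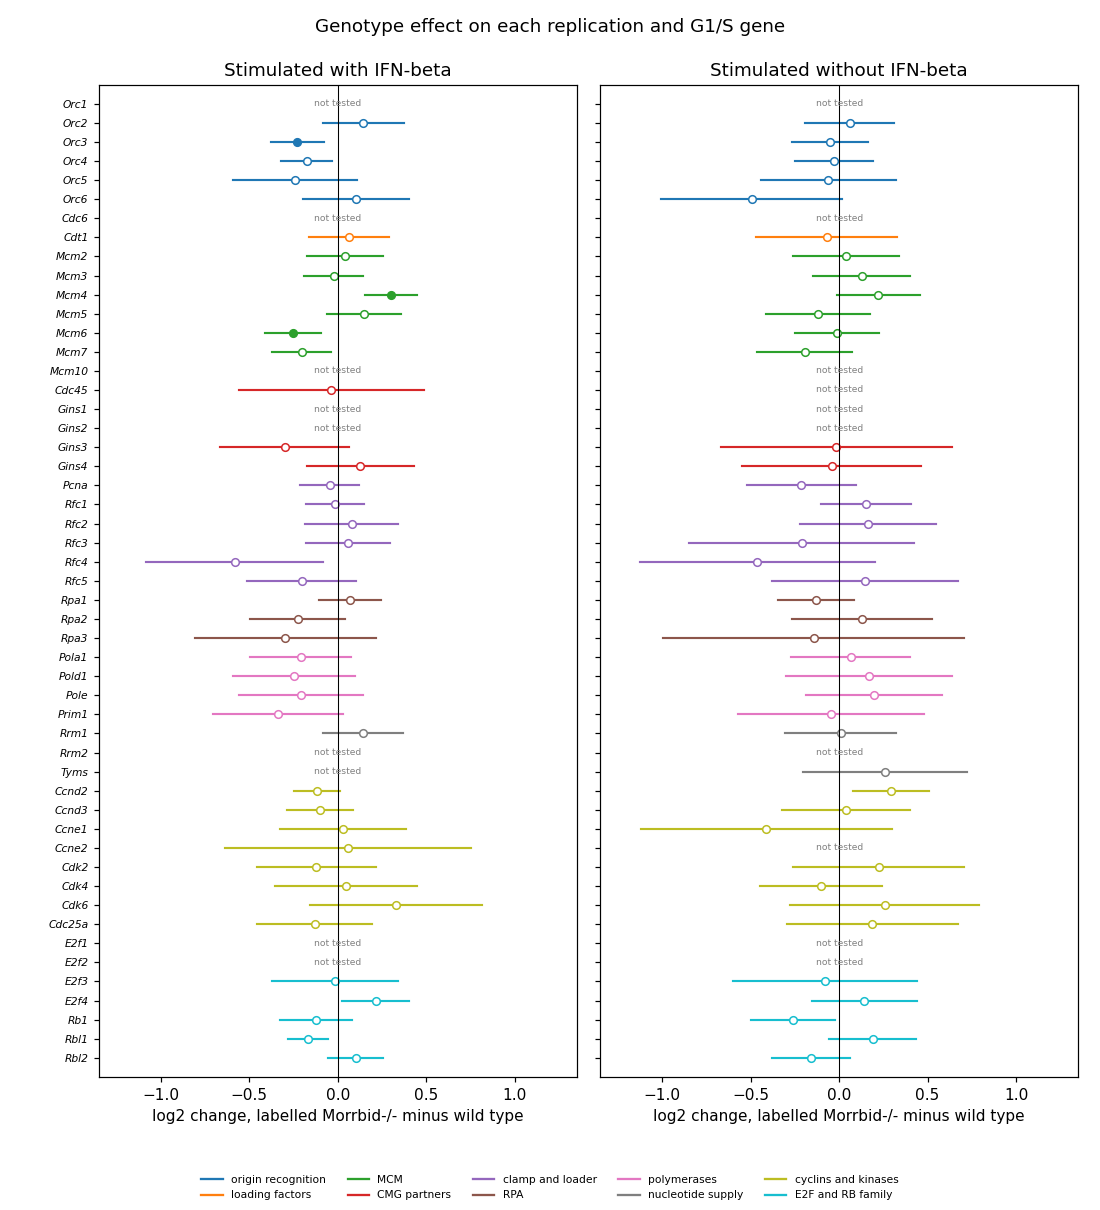
Log2 change of each member, libraries labelled Morrbid-/- minus wild type, with IFN-beta on the left and without it on the right; points are limma estimates, lines their 95% intervals, colours the functional class and filled points an adjusted p under 0.05. Filled points stand only at Mcm4 on the right of zero and at Mcm6 and Orc3 on its left, all in the IFN-beta panel, and the widest intervals belong to low genes such as Rpa3, Rfc4 and Ccne1.

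The origin recognition complex marks the sites where helicases are loaded. ORC3 (Orc3, chromosome 4, 34566781 to 34614963, minus strand, GRCm38.p6) belongs to its core. With IFN-beta, Orc3 had 624, 571, 555 and 578 normalized counts in libraries labelled Morrbid-/- and 717, 645, 738 and 634 in wild type. Every library labelled Morrbid-/- lay below every wild-type library. The log2 change was -0.23 (SE 0.07; adjusted p = 0.0454). The call was lost without replicate 2, 3 or 4 labelled Morrbid-/- (adjusted p = 0.118, 0.125 and 0.0750) or wild-type replicate 1, 2 or 3 (0.127, 0.0537 and 0.127), in limma without the trend (0.154), with equal totals (0.101) and with the 16S share as a covariate (0.105). Without IFN-beta, Orc3 had 289, 297 and 275 normalized counts under the Morrbid-/- label and 298, 312 and 283 in wild type, and these ranges overlapped (log2 change -0.05, SE 0.10).

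Orc4, another core subunit, had 738, 658, 686 and 649.5 normalized counts in libraries labelled Morrbid-/- with IFN-beta, against 795, 795, 793 and 704 in wild type. Its groups overlapped through the lowest wild-type library, and the change of -0.18 (SE 0.07; adjusted p = 0.114) did not pass. Orc6, the smallest subunit, was the member of the class with the smallest p without IFN-beta. It had 23.3, 32.7 and 20.5 normalized counts under the Morrbid-/- label and 37.5, 32.3 and 37.5 in wild type, a log2 change of -0.49 (SE 0.25; adjusted p = 0.814). With IFN-beta its values were 69.6, 63.2, 64.7 and 67.5 under the Morrbid-/- label against 66.1, 61.4, 59.6 and 59.6 in wild type, a change of 0.10 (SE 0.15), and the difference of 0.60 between the effects did not pass (SE 0.25; adjusted p = 0.321). Orc2 had 194, 206 and 186 under the Morrbid-/- label against 216, 171 and 177 in wild type without IFN-beta, and Orc5 had an estimate of -0.24 (SE 0.17) with it. Of the exonic bases of Orc2, 29.8% overlap a gene on the other strand. Orc1, the subunit that comes and goes with the cell cycle in mammals and whose promoter octamer is shown above, had 0 to 9 reads per library and was not tested.

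The loading factors bring the helicase to ORC. Cdt1, the MCM escort, had 139, 129, 147 and 146 normalized counts in libraries labelled Morrbid-/- with IFN-beta and 127, 141, 144 and 126 in wild type. The groups overlapped (log2 change 0.06, SE 0.11; adjusted p = 0.787). Without IFN-beta Cdt1 had 54.7, 49.8 and 67.5 under the Morrbid-/- label against 58.1, 73.9 and 49.7 in wild type (change -0.07, SE 0.19). Its partner Cdc6 was barely detected, with 10.1, 9.16, 9.88 and 4.56 normalized counts under the Morrbid-/- label against 9.44, 6.14, 14 and 3.91 in wild type with IFN-beta, and 2.03, 1.31 and 9.21 under the Morrbid-/- label against 3.58, 1.04 and 1.53 in wild type without it. These are 1 to 12 reads per library, so a change in Cdc6 was not detectable at this depth.

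The MCM2-7 ring is built from 1 copy of each of 6 subunits. Of the 6 subunit genes, 1 was higher, 1 was lower and 4 did not pass with IFN-beta, and the class median was 0.01. Mcm4 (chromosome 16, 15623897 to 15637400, minus strand) had 593, 575, 576 and 641 normalized counts in libraries labelled Morrbid-/- and 465, 494, 473 and 499 in wild type. Those groups stood clear of each other. Mcm4 averaged 596 ± 31.2 under the Morrbid-/- label and 483 ± 16.3 in wild type (SD over 4 libraries each), and its log2 change was 0.30 (SE 0.07; adjusted p = 0.00692). The call held without each library in turn (adjusted p 0.00857 to 0.0271) and was lost only in limma without the trend (adjusted p = 0.0538).

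Mcm4 also had no overlap without IFN-beta, where 282, 248 and 265 normalized counts under the Morrbid-/- label stood against 236, 247 and 200 in wild type. That change, 0.22 (SE 0.11; adjusted p = 0.825), did not pass. The difference between both effects was 0.08 (SE 0.12; adjusted p = 0.841), with a sign shared by both stimulations.

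Mcm6 (chromosome 1, 128331575 to 128359705, minus strand) had 485, 453, 458 and 435 normalized counts in libraries labelled Morrbid-/- with IFN-beta and 558, 488, 535 and 606 in wild type. Again the groups did not overlap, here with the libraries labelled Morrbid-/- below. The log2 change was -0.25 (SE 0.08; adjusted p = 0.0385), and this call, too, was lost with equal totals (0.0864), in limma without the trend (0.139), with the 16S share as a covariate (0.112), without replicate 2, 3 or 4 labelled Morrbid-/- (0.0984, 0.0784 and 0.0918) and without wild-type replicate 1, 3 or 4 (0.0939, 0.0533 and 0.114). Without IFN-beta Mcm6 had 242, 253 and 217 under the Morrbid-/- label against 258, 211 and 249 in wild type (change -0.01, SE 0.12). Mcm7 had 427, 396, 485 and 448 normalized counts in libraries labelled Morrbid-/- with IFN-beta and 463, 507, 507 and 545 in wild type. The highest of the libraries labelled Morrbid-/- overlapped the lowest wild-type library, and the change of -0.20 (SE 0.08; adjusted p = 0.112) did not pass. Without IFN-beta it had 226, 162 and 199.5 under the Morrbid-/- label against 253, 207 and 210 in wild type, a change of the same size, -0.20 (SE 0.13; adjusted p = 0.908). Of the exonic bases of Mcm7, 8.70% overlap genes on the other strand, and the strand setting of the counting is not given in the sources used here.

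Mcm2, a target of the kinase that fires origins, had 211, 202, 195 and 197 normalized counts in libraries labelled Morrbid-/- with IFN-beta and 189, 171, 192 and 235 in wild type. Without it, Mcm2 had 142, 138 and 162 under the Morrbid-/- label against 171, 152 and 112 in wild type. Mcm5, which closes the gate of the ring with MCM2, had 263, 222, 205 and 213 under the Morrbid-/- label against 197, 211, 187 and 217 in wild type with IFN-beta, and 106, 89.1 and 93.1 under the Morrbid-/- label against 105, 102 and 106 in wild type without it. Neither gene separated the genotypes (changes of 0.04 and 0.15 with IFN-beta, SE 0.10 each), and the estimate for Mcm3 was -0.02 (SE 0.08). Mcm10, a later firing factor outside the ring, had 0 to 11 reads and was not tested.

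The unequal change inside the ring can be read without any scaling between libraries, as the ratio of Mcm4 to Mcm6 reads within a library. With IFN-beta the ratio was 1.22, 1.27, 1.26 and 1.47 in libraries labelled Morrbid-/- and 0.833, 1.01, 0.884 and 0.823 in wild type. The ratio of Mcm4 to Mcm7 was 1.19 to 1.45 and 0.916 to 1.01 in the same groups. Without IFN-beta Mcm4 over Mcm6 was 0.979 to 1.22 under the Morrbid-/- label and 0.804 to 1.17 in wild type, so the ranges overlapped, while Mcm4 over Mcm7 was 1.25 to 1.52 under the Morrbid-/- label and 0.933 to 1.19 in wild type. These pairs were chosen after their values were seen and were given no test. In RPKM (reads per kilobase of exon, scaled to depth), Mcm4 was the highest of the 6 subunit genes in all groups, at 25.2 ± 0.998 under the Morrbid-/- label and 19.9 ± 0.761 in wild type with IFN-beta, followed by Mcm7 and Mcm6 in libraries labelled Morrbid-/- (15.1 ± 1.28 and 14.9 ± 0.798), which did not differ beyond their spread, and Mcm2 was lowest.

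**Figure D2:**
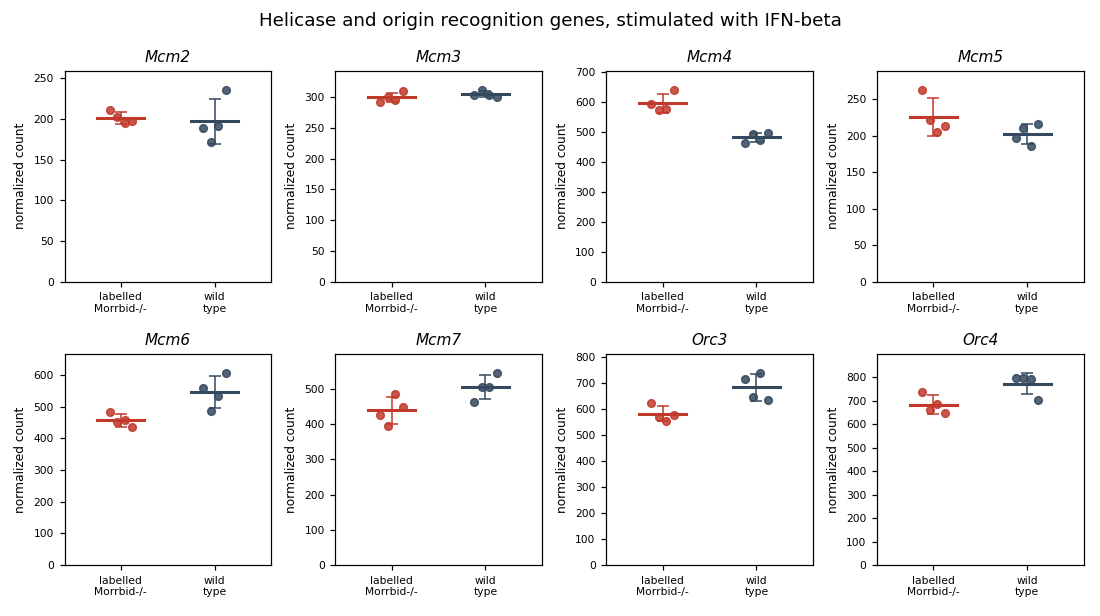
Normalized counts of the MCM2-7 genes, Orc3 and Orc4 in each library stimulated with IFN-beta, libraries labelled Morrbid-/- on the left of each panel and wild type on the right; points are libraries, thick lines means and bars SD (n = 4 each). Mcm4 lies higher under the Morrbid-/- label, Mcm6 and Orc3 lie lower without overlap, and Mcm2, Mcm3 and Mcm5 overlap.

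CDC45 and the GINS complex turn the loaded ring into a moving helicase. With IFN-beta, none of the 3 tested members passed. Gins3 had 38.5, 48.6, 48.5 and 56.6 normalized counts in libraries labelled Morrbid-/- against 48.4, 63.5, 54.9 and 71.3 in wild type (change -0.30, SE 0.18; adjusted p = 0.311). Gins4 had 74.2, 98.1, 102 and 99.4 under the Morrbid-/- label against 81.4, 87.0, 71.2 and 103 in wild type (change 0.13, SE 0.15). Both pairs of groups overlapped, as they did without IFN-beta, where Gins4 had 31.4, 55.0 and 32.7 under the Morrbid-/- label against 50.1, 40.6 and 30.6 in wild type and Gins3 had 17.2, 14.4 and 22.5 under the Morrbid-/- label against 12.5, 20.8 and 22.2 in wild type. Cdc45 passed the filter only with IFN-beta, at 18 to 35 reads under the Morrbid-/- label and 19 to 27 in wild type, and Gins1 and Gins2 in neither table. Most of the exonic sequence of Gins2 (67.3%) overlaps a gene on the other strand.

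PCNA is the clamp that holds polymerases on DNA, and RFC is the complex that loads it. Pcna had 422, 424, 398 and 424 normalized counts in libraries labelled Morrbid-/- with IFN-beta and 478, 403, 394 and 454 in wild type. Its change was -0.05 (SE 0.08; adjusted p = 0.781), with an interval of -0.21 to 0.12. Without IFN-beta Pcna had 389, 312 and 259.9 under the Morrbid-/- label against 486, 348 and 292 in wild type, groups that overlapped although the mean was lower under the Morrbid-/- label (change -0.21, SE 0.15; adjusted p = 0.914).

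The largest estimate of any tested member with IFN-beta belonged to Rfc4, a small loader subunit, which had 17.4, 20.2, 17.1 and 25.5 normalized counts in libraries labelled Morrbid-/- and 36.6, 31.7, 31.5 and 22.5 in wild type. The groups overlapped through 1 library each, and the change of -0.58 (SE 0.24; adjusted p = 0.135) did not pass. Without IFN-beta Rfc4 had 16.2, 15.7 and 12.3 under the Morrbid-/- label against 22.3, 28.1 and 13.8 in wild type (change -0.46, SE 0.32; adjusted p = 0.913). Both estimates rest on 12 to 31 reads per library, and 12.7% of Rfc4 exons overlap a gene on the other strand. Rfc5 had 79.7, 59.6, 87.2 and 92.1 under the Morrbid-/- label against 81.4, 86.0, 96.9 and 99.6 in wild type with IFN-beta, and Rfc1, the large subunit, had an estimate of -0.02 (SE 0.08).

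Replication protein A coats single-stranded DNA. With IFN-beta, Rpa2 had 92.5, 81.6, 87.2 and 98.5 normalized counts in libraries labelled Morrbid-/- and 104, 92.2, 119 and 107 in wild type, a change of -0.23 (SE 0.13; adjusted p = 0.296). Rpa3 had 33.0, 17.4, 30.6 and 25.5 under the Morrbid-/- label against 27.1, 45.1, 24.5 and 35.2 in wild type. Rpa1, the large DNA-binding subunit, had 269, 251 and 249 under the Morrbid-/- label against 270.0, 288 and 284 in wild type without IFN-beta. There the groups narrowly did not overlap, and the change of -0.13 (SE 0.10; adjusted p = 0.933) did not pass. With IFN-beta the mean of Rpa1 stood the other way (change 0.07, SE 0.08), and Rpa2 without IFN-beta had 57.8, 61.5 and 47.1 under the Morrbid-/- label against 50.1, 57.2 and 44.3 in wild type.

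Polymerase alpha with primase starts each strand, and polymerases epsilon and delta extend it. With IFN-beta all 4 polymerase genes had negative estimates, from -0.34 to -0.21, with a median of -0.23, and none passed (adjusted p 0.247 to 0.491). Prim1, the catalytic primase subunit, had 41.2, 47.7, 54.8 and 56.6 normalized counts in libraries labelled Morrbid-/- and 80.2, 55.3, 51.4 and 69.3 in wild type. Pola1 had 69.6, 67.8, 86.3 and 86.7 under the Morrbid-/- label against 85, 84.0, 93.4 and 95.7 in wild type. The groups overlapped for both genes. Without IFN-beta 3 of the 4 estimates were positive, with a median of 0.12. There Pole had 66.9, 62.9 and 96.2 under the Morrbid-/- label against 71.5, 54.1 and 68.8 in wild type, and Pold1 had 41.6, 41.9 and 50.1 under the Morrbid-/- label against 29.5, 54.1 and 38.2 in wild type. The differences between the effects were -0.41 to -0.27, and none passed (adjusted p 0.597 to 0.753).

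Ribonucleotide reductase and thymidylate synthase make the deoxynucleotides. Rrm1, the reductase subunit present throughout the cycle, had 205, 171, 174 and 197 normalized counts in libraries labelled Morrbid-/- with IFN-beta and 189, 154, 149 and 187 in wild type (change 0.14, SE 0.11; adjusted p = 0.469). Without IFN-beta it had 91.2, 87.7 and 80.8 under the Morrbid-/- label against 93.9, 79.1 and 85.6 in wild type. Rrm2, the subunit made for S phase, was near the floor in both tables, with 6.41, 12.8, 3.59 and 0.912 under the Morrbid-/- label against 3.54, 7.17, 1.17 and 4.88 in wild type with IFN-beta and 5.07, 3.93 and 1.02 under the Morrbid-/- label against 3.58, 3.12 and 3.82 in wild type without it. Tyms was at 1.83 to 9.12 normalized counts under the Morrbid-/- label and 5.86 to 15.4 in wild type with IFN-beta. Without it Tyms had 35.5, 39.3 and 53.2 under the Morrbid-/- label against 30.4, 37.5 and 37.5 in wild type (change 0.26, SE 0.22; adjusted p = 0.943).

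Cyclin D2 is the D-type cyclin that T cells make soon after activation. Its gene Ccnd2 (chromosome 6, 127125162 to 127152188, minus strand) was the member with the smallest p without IFN-beta, at 645, 558 and 537 normalized counts in libraries labelled Morrbid-/- against 501, 423 and 495 in wild type. All libraries labelled Morrbid-/- lay above all wild-type libraries, and the change of 0.29 (SE 0.10; unadjusted p = 0.00939) did not pass over the table (adjusted p = 0.507). With IFN-beta Ccnd2 had 7465, 7443, 7206 and 6146 normalized counts under the Morrbid-/- label against 7343, 7719, 8297 and 7225 in wild type, a change of -0.12 (SE 0.06; adjusted p = 0.264). The estimates thus had opposite signs, and their difference was -0.41 (SE 0.12; adjusted p = 0.101), which passed with DESeq2 on recovered reads (adjusted p = 0.0413) and with the 16S share as a covariate (0.00713).

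Among the other cyclins and kinases none passed in either table. Ccnd3, another D-type cyclin of lymphocytes, had 243, 274, 250 and 247 normalized counts in libraries labelled Morrbid-/- with IFN-beta and 254, 286, 253 and 297 in wild type, and 64.9, 105 and 89.0 under the Morrbid-/- label against 72.4, 86.4 and 89.4 in wild type without it. Ccne1, the cyclin that drives S phase with CDK2, had 53.1, 53.2, 48.5 and 65.7 under the Morrbid-/- label against 49.6, 44.0, 61.9 and 61.5 in wild type with IFN-beta, and 11.2, 14.4 and 9.21 under the Morrbid-/- label against 12.5, 17.7 and 16.8 in wild type without it (change -0.41, SE 0.34; adjusted p = 0.943). All of these groups overlapped.

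Of the kinases, Cdk4 had 66.0, 58.7, 61.1 and 52.9 normalized counts in libraries labelled Morrbid-/- with IFN-beta and 94.4, 47.1, 51.4 and 47.8 in wild type, where 1 library stood far above the rest. Without IFN-beta it had 65.9, 65.5 and 68.6 under the Morrbid-/- label against 79.6, 74.9 and 61.9 in wild type. Cdk6 had 38.5, 22.9, 44.9 and 36.5 under the Morrbid-/- label against 34.2, 28.7, 28.0 and 20.5 in wild type with IFN-beta (change 0.33, SE 0.24; adjusted p = 0.428), and 29.4, 40.6 and 38.9 under the Morrbid-/- label against 30.4, 20.8 and 42.0 in wild type without it. Cdc25a, the phosphatase that frees CDK2, had 62.3, 72.4, 68.3 and 76.6 under the Morrbid-/- label against 82.6, 61.4, 68.9 and 97.6 in wild type with IFN-beta, and 33.5, 32.7 and 42.0 under the Morrbid-/- label against 35.8, 25 and 34.4 in wild type without it. No gene of this trio separated the genotypes, and Cdk2 had estimates of -0.12 (SE 0.16) with IFN-beta and 0.22 (SE 0.24) without it. Of the exons of Cdk4, 19.7% overlap Tspan31 on the other strand.

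The E2F activators that drive S phase were scarce in both tables. E2f1 had 5.50, 5.50, 7.19 and 2.74 normalized counts in libraries labelled Morrbid-/- with IFN-beta and 1.18, 0, 10.5 and 5.86 in wild type. Without IFN-beta it had 6.08, 1.31 and 4.09 under the Morrbid-/- label against 7.15, 9.36 and 6.88 in wild type, or 11 reads in all under the Morrbid-/- label and 26 in wild type, below the filter and not tested. Its groups did not overlap there, at 1 to 6 reads per library under the Morrbid-/- label and 8 to 9 in wild type. E2f2 had 11, 3.67, 5.39 and 2.74 under the Morrbid-/- label against 7.08, 8.19, 5.84 and 3.91 in wild type with IFN-beta, and 6.08, 3.93 and 3.07 under the Morrbid-/- label against 8.04, 7.28 and 4.59 in wild type without it. E2f3 was measured, at 44.0, 57.7, 55.7 and 57.5 under the Morrbid-/- label against 47.2, 46.1, 64.2 and 60.5 in wild type with IFN-beta and 25.3, 28.8 and 21.5 under the Morrbid-/- label against 26.8, 26 and 26.8 in wild type without it, with estimates of -0.01 (SE 0.17) and -0.08 (SE 0.25).

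E2f4, the repressor E2F of resting cells, had 301, 286, 254 and 279 normalized counts in libraries labelled Morrbid-/- with IFN-beta and 259.6, 257, 228 and 222 in wild type. Its change of 0.21 (SE 0.09; adjusted p = 0.151) did not pass. Rbl1, which encodes p107 (chromosome 2, 157145893 to 157204534, minus strand), had 2713, 2769.6, 2932 and 3049.6 under the Morrbid-/- label against 3167, 3278, 3308 and 3109 in wild type. Every library labelled Morrbid-/- lay below every wild-type library, and the change of -0.17 (SE 0.06; adjusted p = 0.0556) just missed the threshold. It was called by DESeq2 on recovered reads (0.0384), with a minimum mean of 50 (0.0452), without wild-type replicate 4 (0.0486) and without replicate 4 labelled Morrbid-/- (0.0284).

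Without IFN-beta Rbl1 had 255, 263 and 291 normalized counts in libraries labelled Morrbid-/- against 215, 279.9 and 219 in wild type, with an estimate of the other sign, 0.19 (SE 0.12; adjusted p = 0.884). The difference between the effects, -0.36 (SE 0.12; adjusted p = 0.160), passed only without wild-type replicate 2 (adjusted p = 0.0136). Rb1, the retinoblastoma gene, had 202, 198 and 222 under the Morrbid-/- label against 223, 279.9 and 245 in wild type without IFN-beta. Its groups narrowly did not overlap, and the change of -0.26 (SE 0.12; unadjusted p = 0.0338) did not pass (adjusted p = 0.769). With IFN-beta Rb1 had 337, 286, 368 and 269 under the Morrbid-/- label against 333, 336, 381 and 314 in wild type (change -0.12, SE 0.10), and 14.9% of its exons overlap genes on the other strand. Rbl2, which encodes p130, had estimates of 0.10 (SE 0.08) with IFN-beta and -0.16 (SE 0.11) without it. Of the exonic bases of Rbl2, 21.0% overlap genes on the other strand.

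Among the tested members, groups that did not overlap were thus Mcm4 above, and Mcm6, Orc3 and Rbl1 below, with IFN-beta, and Ccnd2 and Mcm4 above, and Rb1 and Rpa1 below, without it. These are 4 of 42 and 4 of 41 tested members, against 15.2% of all genes tested with IFN-beta (7.58% above and 7.6% below) and 10.9% without it (5.53% above and 5.39% below). By this count, too, the members did not stand out from the rest of the genes.

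Levels between genes were compared as RPKM, reads per kilobase of exon scaled to library depth. With IFN-beta Ccnd2 ranked first of the 51 in both genotypes, at 114 ± 11.3 in libraries labelled Morrbid-/- and 120 ± 7.86 in wild type, followed in the same groups by Rbl1 (72.6 ± 3.24 and 79.2 ± 2.51) and Pcna (26.4 ± 0.755 and 26.6 ± 2.36). Without IFN-beta Pcna ranked first (56.9 ± 8.50 under the Morrbid-/- label and 64.2 ± 13.9 in wild type). Mcm10 was lowest in each group, at 0.0892 under the Morrbid-/- label and 0.0991 in wild type with IFN-beta. Cdc6, Mcm10, Orc1, E2f1, E2f2, Rrm2, Gins1 and Gins2 were below the filter in both tables, with 0 to 18 reads per library, and a change by genotype in these 8 genes was not detectable at this depth.

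**Figure D3:**
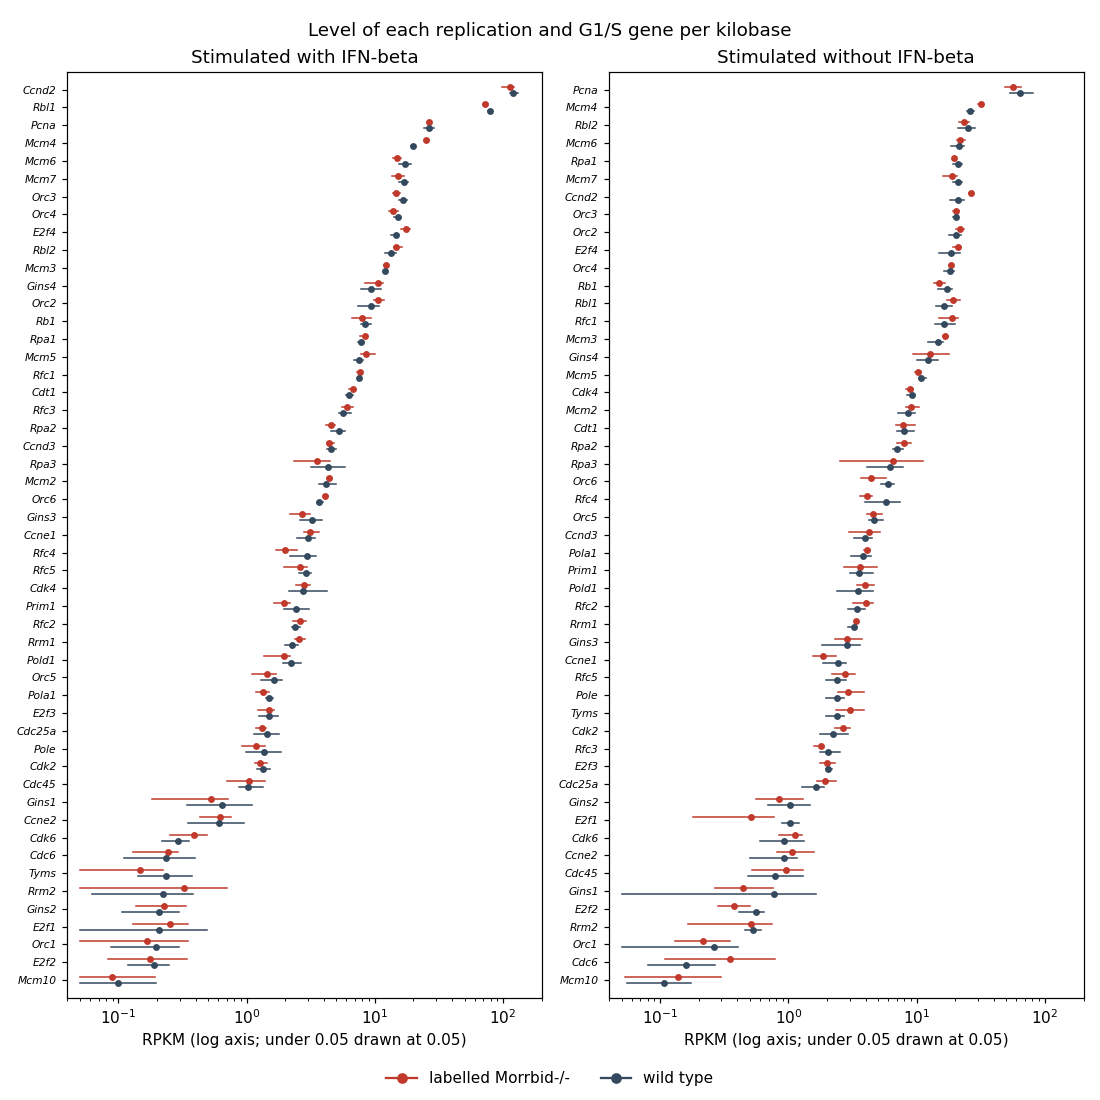
Level of each of the 51 genes in RPKM on recovered reads, on a log axis, with IFN-beta on the left and without it on the right; red is the group labelled Morrbid-/-, dark blue wild type, points are means, lines the range over libraries (under 0.05 drawn at 0.05), and genes are ordered by the wild-type mean. Both genotypes follow nearly the same order, with Ccnd2 and Rbl1 at the top with IFN-beta and the genes below the filter at the bottom.

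The tables with and without IFN-beta were scaled separately, and IFN-beta, sequencing depth and table cannot be told apart, so levels are set side by side as RPM (reads scaled to the same library total) and not tested. Most members had a smaller share of reads in the table with IFN-beta, as most genes did: the median ratio was 0.68 over the 40 members and 0.70 over 9078 genes in libraries labelled Morrbid-/-, and 0.70 and 0.69 in wild type. The members above a ratio of 2 were Ccnd2, Rbl1 and Rfc3. Ccnd2 averaged 1074 ± 107 RPM with IFN-beta and 248 ± 10.6 without it in libraries labelled Morrbid-/-, and 1129 ± 74.0 and 196 ± 23.0 in wild type. Rbl1 averaged 435 ± 19.4 and 116 ± 13.5 in libraries labelled Morrbid-/-, and 475 ± 15.0 and 98.5 ± 14.5 in wild type. The ratios, 4.33 and 5.76 for Ccnd2 and 3.75 and 4.82 for Rbl1, stood at the 98.1 to 98.6 percentiles of all genes. Rfc3, a small subunit of the clamp loader, had ratios of 3.35 and 2.75, from 12 to 27 reads per library without IFN-beta.

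Ratios within a library need no scaling between tables. Ccnd2 over Ccnd3 was 24.9 to 30.7 with IFN-beta and 5.33 to 9.94 without it in libraries labelled Morrbid-/-, and 24.3 to 32.7 and 4.90 to 6.91 in wild type. Rbl1 over Rb1 was 7.98 to 11.3 and 1.27 to 1.33 in libraries labelled Morrbid-/-, and 8.69 to 9.89 and 0.894 to 1.00 in wild type. Rbl1 over Rbl2 was 3.69 to 4.08 and 0.593 to 0.710 in libraries labelled Morrbid-/-, and 4.45 to 5.10 and 0.452 to 0.571 in wild type. Within each table the genotypes overlapped for Ccnd2 over Ccnd3, while Rbl1 over Rb1 without IFN-beta and Rbl1 over Rbl2 in both tables did not overlap between genotypes. These pairs were likewise chosen after their values were seen and carry no test. Over the 40 members compared, the 4 lowest ratios between the tables under the Morrbid-/- label were Orc5, Cdk4, Pola1 and Cdk6 (0.310 to 0.346). In wild type they were those of Cdk4, Cdk6, Orc5 and Rpa1 (0.298 to 0.372). Members below the filter in either table were left out, among them Tyms. In RPKM, Tyms averaged 0.147 ± 0.0758 with IFN-beta and 3.03 ± 0.801 without it in libraries labelled Morrbid-/-. In wild type its averages were 0.236 ± 0.114 and 2.40 ± 0.383. With IFN-beta Tyms had 2 to 15 reads per library, and this contrast was not tested. Together the 51 genes took 0.260% to 0.281% of reads with IFN-beta and 0.226% to 0.239% without it in libraries labelled Morrbid-/-, and 0.276% to 0.295% and 0.218% to 0.235% in wild type. With Ccnd2 and Rbl1 set aside, the shares were 0.120% to 0.126% and 0.190% to 0.202% in libraries labelled Morrbid-/-, and 0.121% to 0.125% and 0.190% to 0.203% in wild type.

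**Figure D4:**
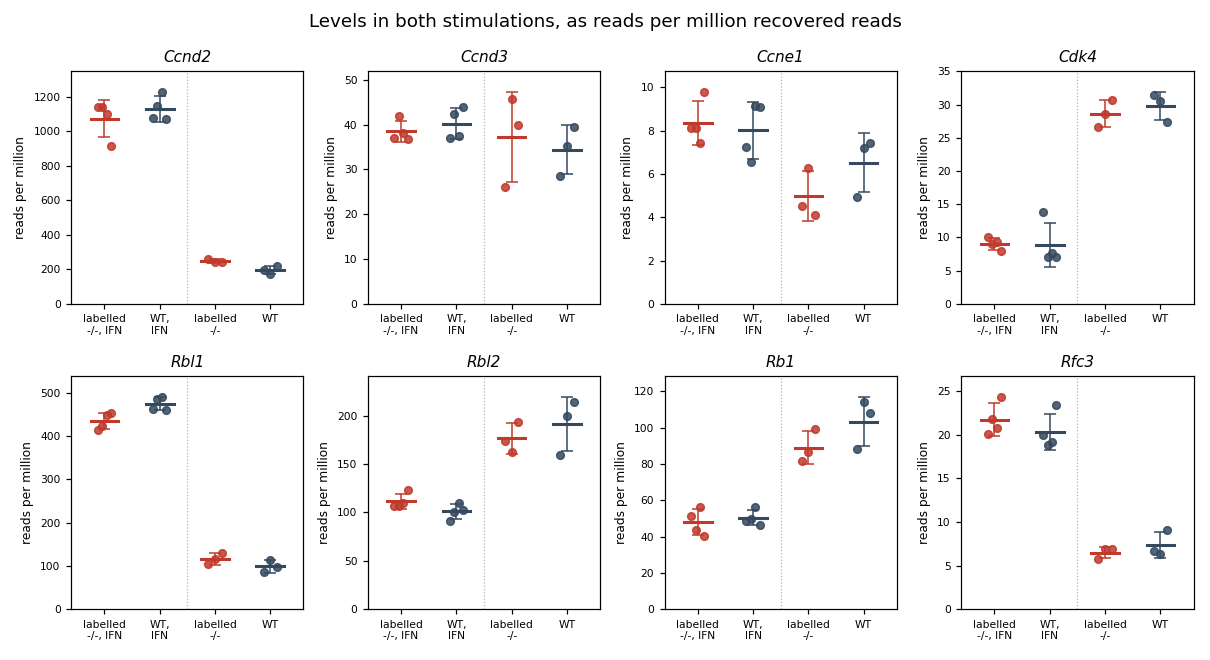
RPM, on recovered reads, of 8 cyclin, kinase, RB family and clamp loader genes in each library, the groups given IFN-beta left of the dotted line and those without it on the right, with libraries labelled Morrbid-/- left of wild type in each; points are libraries, thick lines means and bars SD (n = 4 and 3 per genotype). Ccnd2, Rbl1 and Rfc3 are higher left of the line in both genotypes, Cdk4, Rb1 and Rbl2 are lower, and the genotypes lie close together on each side.

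Other genes of the pathway were read from lists that hold no member. With IFN-beta, 1 of 32 tested genes of the remaining replication machinery was higher and 2 were lower. These calls made up 9.38% of the list, near the 10.1% of all genes tested, and the calls in nucleotide supply (8.70%) and other G1/S control (6.25%) given further on were no more frequent. Lig1, the ligase that joins Okazaki fragments, had 160.4, 194, 194 and 208 normalized counts in libraries labelled Morrbid-/- and 132, 159.7, 131 and 142 in wild type (change 0.42, SE 0.11; adjusted p = 0.0163). The accessory subunits of polymerase epsilon were lower, Pole4 at 95.3, 111, 94.4 and 91.2 under the Morrbid-/- label against 146, 127, 144 and 126 in wild type (change -0.47, SE 0.12; adjusted p = 0.0130) and Pole2 at 78.8, 72.4, 95.3 and 72.1 under the Morrbid-/- label against 104, 125, 102 and 98.6 in wild type (change -0.43, SE 0.14; adjusted p = 0.0477). All 3 genes separated the genotypes, Lig1 only narrowly. The Pole4 call held under all 18 alternatives, the Lig1 call under 13 and the Pole2 call under 7. Lig1 was lost without replicate 2 or 4 labelled Morrbid-/- (adjusted p = 0.0574 and 0.0552) or wild-type replicate 1 (0.0515), in limma without the trend (0.0722) and with the 16S share as a covariate (0.0510). Pole2 was lost under 5 other processing choices (0.0662 to 0.0894) and without any library but replicate 3 labelled Morrbid-/- or wild-type replicate 4 (up to 0.156). Without IFN-beta 0 of 30 passed by limma, 0 at an unadjusted p under 0.05, with 0 calls by edgeR and by DESeq2.

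In nucleotide supply, Ppat and Paics, which encode enzymes of purine synthesis and lie next to each other on chromosome 5 on opposite strands, were both lower with IFN-beta, and 21 of the 23 tested genes did not pass. Ppat had 124, 106, 104 and 97.6 normalized counts in libraries labelled Morrbid-/- and 188, 138, 165 and 126 in wild type (change -0.50, SE 0.13; adjusted p = 0.0149). Paics had 171, 142, 151 and 156 under the Morrbid-/- label against 204, 166, 208 and 211 in wild type (change -0.34, SE 0.11; adjusted p = 0.0441), a call that was lost under 10 of 18 alternatives, among them leaving out any library but replicate 1 labelled Morrbid-/- or wild-type replicate 2 (up to 0.141), and 4 other processing choices (0.0532 to 0.140). The Ppat call was lost without wild-type replicate 1 (0.0761), in limma without the trend (0.0903) and with the 16S share as a covariate (0.0673). Of the exonic bases of Paics 8.67% overlap Ppat, and 6.15% of those of Ppat overlap Paics. Without IFN-beta 1 of 25 tested genes passed, and it was the largest change of any gene in these lists. Samhd1 encodes the hydrolase that degrades deoxynucleotides and is a known interferon-stimulated gene. It had 1461, 1829 and 1867 normalized counts in libraries labelled Morrbid-/- and 646, 925 and 882 in wild type, a change of 1.08 (SE 0.12; adjusted p = 3.6e-06). The call held under 15 of 16 alternatives and was lost in limma without the trend (adjusted p = 0.113). With IFN-beta it had 44339, 49819.6, 44690.4 and 50637 under the Morrbid-/- label against 44519, 46492, 43946 and 49390.0 in wild type, a change of 0.04 (SE 0.06; adjusted p = 0.754). The difference between the effects, -1.04 (SE 0.15), passed (adjusted p = 7.47e-05). Samhd1 and the member Rbl1 are neighbours on the minus strand of chromosome 2, with 10796 bases between them.

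Of the CDK inhibitors, 1 of 3 tested passed with IFN-beta. Cdkn1b encodes p27, which holds CDK2 with cyclin E inactive in resting T cells. It had 673, 853, 915 and 999 normalized counts in libraries labelled Morrbid-/- and 666, 775, 611 and 681 in wild type, with an overlap of 1 library (change 0.32, SE 0.09; adjusted p = 0.0301). Without IFN-beta the values were 267, 329 and 276 under the Morrbid-/- label against 352, 408 and 324 in wild type, also overlapping, with an estimate of the other sign (-0.31, SE 0.11; adjusted p = 0.546). The difference of 0.64 (SE 0.16) passed at an adjusted p of 0.0420. It was lost under 12 of 24 alternatives, and leaving out a library kept it only for replicate 1 with IFN-beta and replicate 2 without it labelled Morrbid-/-, and for wild-type replicate 2 with IFN-beta and replicate 3 without it (up to 0.117 in the other 10). It was also lost with equal totals (0.0514) and in limma without the trend (0.224). The call with IFN-beta was lost without replicate 2, 3 or 4 labelled Morrbid-/- (0.0778, 0.0945 and 0.105) or wild-type replicate 1 or 3 (0.0769 and 0.0869), in limma without the trend (0.210) and with the 16S share as a covariate (0.0523). Without IFN-beta 0 of 3 inhibitors passed by limma, 1 at an unadjusted p under 0.05, with 0 calls by edgeR and by DESeq2.

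Among the other G1/S regulators 1 of 16 passed with IFN-beta, Klf2, a factor that keeps T cells quiescent, at 1075, 1009.97, 980.4 and 938 under the Morrbid-/- label against 749, 773, 909.7 and 939 in wild type (change 0.25, SE 0.08; adjusted p = 0.0337). That call was lost under 7 of 18 alternatives, among them without replicate 1, 2 or 3 labelled Morrbid-/- (0.104, 0.0907 and 0.0623) and wild-type replicate 1 or 2 (0.132 and 0.121), limma without the trend (0.184) and the 16S share as a covariate (0.157). With IFN-beta 7 of the 16 had an unadjusted p under 0.05, against 2434 of all 9964 genes tested, and 11 of the 16 estimates were positive. Without IFN-beta 0 of 16 passed by limma, 1 at an unadjusted p under 0.05, and edgeR and DESeq2 called 0. The list of other E2F, DP and DREAM genes had 0 calls of 10 with IFN-beta and 0 of 9 without it (2 and 1 at an unadjusted p under 0.05; edgeR and DESeq2 called 0 in both tables). The genes of S, G2 and mitosis had 0 calls of 13 and 0 of 8 (0 and 1 at an unadjusted p under 0.05; edgeR and DESeq2 called 0 in both tables), with 9 and 14 of the 22 listed below the filter.

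**Figure D5:**
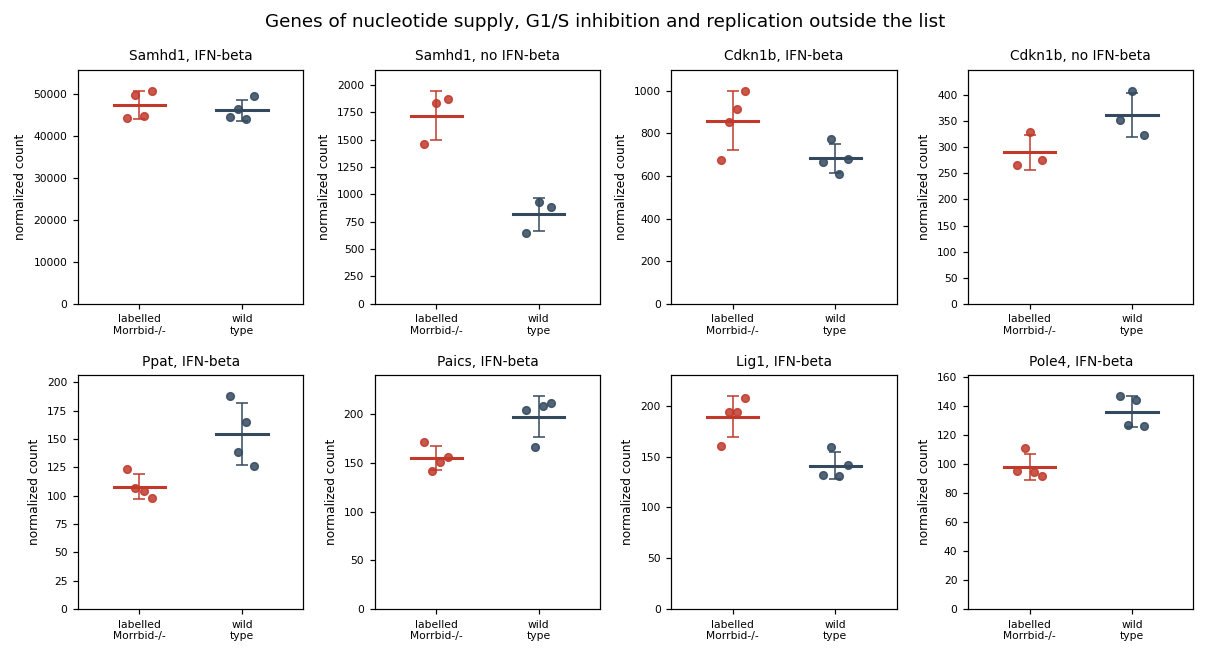
Normalized counts of 6 genes outside the list in each library, libraries labelled Morrbid-/- left of wild type in each panel; points are libraries, thick lines means and bars SD (n = 4 each with IFN-beta, 3 each without). Samhd1 averages 1719 under the Morrbid-/- label and 818 in wild type without IFN-beta and overlaps with it, while Cdkn1b and Lig1 are higher and Ppat, Paics and Pole4 lower under the Morrbid-/- label with IFN-beta.

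Markers of activation and of natural killer cells were read beside these results. With IFN-beta the 8 activation markers, all present, summed to 4921 to 7157 normalized counts in libraries labelled Morrbid-/- and 6154 to 8194 in wild type, and the natural killer list to 549 to 718 and 666 to 813, with 4 of its 6 genes present and Klre1 and Ncr1 not in the table. Without IFN-beta the sums were 2691 to 2881 and 2068 to 2829 for activation. For natural killer genes they were 451 to 508 and 540 to 634, the only pair of these ranges that did not overlap. Only Klrd1 of those 6 genes had a mean of at least 10. It averaged 473 ± 27.8 normalized counts under the Morrbid-/- label and 573 ± 46.5 in wild type (change -0.27, SE 0.10; limma adjusted p = 0.536). The averages of Nkg7 (10.6 and 7.46), Klrb1c and Klre1 stood the other way, and Gzma and Ncr1 had 0. Of the activation markers, Cd69 and Irf4 had the highest averages in both tables. Of the 7 activation markers tested, none passed with IFN-beta, where 2 estimates were positive and 5 negative. Without it none passed either, with 6 positive and 1 negative. An unadjusted p under 0.05 was reached by 2 and 1 of these 7. All 9 CD8 T cell markers had negative estimates in both tables, with a median of -0.12 with IFN-beta and -0.16 without it. An unadjusted p under 0.05 was reached by 2434 of 9964 genes with IFN-beta and 567 of 9290 without it. It was reached by 3 and 2 of these 9 markers. Only 1 passed, Trbc1, a constant region of the T cell receptor, which was lower with IFN-beta (572, 579, 616 and 649 under the Morrbid-/- label against 847, 723, 733 and 669 in wild type; change -0.30, SE 0.08; adjusted p = 0.0138), a call lost without replicate 2 labelled Morrbid-/- (0.0564) or wild-type replicate 1 (0.0720), in limma without the trend (0.117) and with the 16S share as a covariate (0.0900). The part of these differences in the results for replication genes was not tested.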

How the data were processed

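Total RNA libraries of 14 samples were read as 75-base pairs, per the labels' protocols. Per gene, the authors gave a signal of DESeq2-normalized counts, deposited as 2 tables scaled apart, 1 with IFN-beta and 1 without. Tools in the submitters' processing notes are STAR 2.5, Trimmomatic, DESeq2 and featureCounts, and builds mm10 and GRCm38. Strand setting, annotation and filters: not given in the sources used here. Dividing by the smallest step in a library recovered whole reads (within 0.01) for 100% of values. The members, gene lists and rules for named genes were chosen with earlier results of these data known.

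Genotypes were compared within each table, always the Morrbid-/- label minus wild type, with limma 3.58.1 (R 4.3.3, mean-variance trend) on log2(normalized count + 1) for genes with a mean of at least 10. This scale understates changes of low genes. Benjamini-Hochberg adjustment ran over all genes tested, with a threshold of 0.05, two-sided. The difference between stimulations was the interaction contrast over 14 libraries. Errors are SD over libraries or SE of the fit, and intervals are 95%. Quasi-likelihood tests of edgeR 4.0.16 called 1011 genes with IFN-beta, 59 without and 114 for the difference, and DESeq2 1.42.0 called 956, 52 and 149. Other alternatives were pseudocounts of 0.5 and 5, no filter, a minimum mean of 50, equal totals, limma without the trend, the replicate number as a block, the 16S rRNA share as a covariate, and leaving out each library. The steps were tested on simulated data. Levels per kilobase used exon unions of GENCODE vM21. Gene positions and promoter windows are from RefSeq (GRCm38.p6). Genes named were members past the threshold, the 2 with the smallest p in classes with none, 16 members set by role, and up to 4 called genes per other list. Read numbers are printed without an error, and without molecular identifiers they are not counts of distinct molecules. Of the cell type markers, 1 is not reported here.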

Additional observations from a re-analysis of the deposited data

Results flagged for a closer look

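In 8 of the 102 groups of 4 examined, 1 library stood apart from the other 3, and chance alone gives about 1 in 20. Libraries labelled Morrbid-/- with IFN-beta gave 5 of these: E2f3 in replicate 1 (44.0 normalized counts, against 55.7 to 57.7 in the rest), Gins4 in replicate 1 (74.2, against 98.1 to 102), Pcna in replicate 3 (398, against 422 to 424), Pold1 in replicate 4 (44.7, against 65.6 to 68.7) and Rpa1 in replicate 4 (286, against 313 to 316). Wild-type libraries with IFN-beta gave 3: Cdk4 in replicate 1 (94.4, against 47.1 to 51.4), Orc4 in replicate 4 (704, against 793 to 795) and Paics in replicate 2 (166, against 204 to 211). They fall in 3 replicates of each genotype, and none concerns a called member.

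Among the other pathway genes read beside the members, the genotype effect differed between stimulations for 2, of 121 such genes among all 9078 tested. For Samhd1 the effect with IFN-beta minus that without it was -1.04 (SE 0.15; limma adjusted p = 7.47e-05), and it passed under all 24 alternatives run. For Cdkn1b it was 0.64 (SE 0.16; adjusted p = 0.0420), with 3 of 4 libraries labelled Morrbid-/- above every wild-type library with IFN-beta and 2 of 3 below every wild-type library without it.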

How the results depend on the processing

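No member, and no other called gene named apart from Bcl2l11, had a call of the opposite direction under any alternative run. For Bcl2l11 only edgeR and DESeq2 on recovered reads are given, and both called it lower with IFN-beta. Limma without the trend gave 0 members higher and 0 lower with IFN-beta, with 305 genes called there, 17 without IFN-beta and 66 for the difference. Equal totals and the 16S share as a covariate each gave 0 members lower with IFN-beta. Equal totals split the 1074 called genes into 730 higher and 344 lower, against 523 and 482 with the deposited scaling. The 16S covariate called 103 genes without IFN-beta and 1 member, Ccnd2, for the difference, as did DESeq2 (1 member). Leaving out 1 library gave 39 to 74 genes without IFN-beta (39 without replicate 2 labelled Morrbid-/-), 609 to 1021 with it (609 without replicate 2 labelled Morrbid-/-), and 97 to 143 for the difference. Members lower with IFN-beta then numbered 0 to 2, members higher 1 throughout, and members called for the difference 0 to 1. The cause was not tested.

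Same-numbered libraries were not all correlated (r 0.378, -0.0235 and 0.301 without IFN-beta, and 0.0707, 0.0298, 0.127 and 0.242 with it). Between different numbers r was -0.361 to 0.0825 without IFN-beta and -0.165 to 0.0848 with it. Each library labelled Morrbid-/- correlated best with the wild-type library of its number, except replicate 2 without IFN-beta and replicate 1 with it. The labels give no pairing and these values do not settle whether the numbers pair libraries, so the block is given only here. With the replicate block, 1 member (Ccnd2) was higher without IFN-beta (limma adjusted p = 0.0374) and 1 (Ccnd2) passed for the difference. Rbl1 was then also called lower with IFN-beta. The block called 1421 genes with IFN-beta, 169 without it and 311 for the difference, where the main fit called 1005, 59 and 121. At 0 to 18 reads per library, 8 members are beyond what this depth can compare.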
